A study of Mus musculus with 8 samples.

Results

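The enterocyte absorptive and brush border genes are 32 genes named by symbol, whose products build the microvilli of the intestinal absorptive cell or digest and take up nutrients at its surface. All 32 were found once each among the 55681 genes of the deposited table, on 16 chromosomes, and were set out by role. The roles were 8 brush border scaffold and surface genes, 6 surface peptidase and phosphatase genes, 3 disaccharidases, 3 sugar transporters, 5 peptide and amino acid transporter genes, 6 fat and vitamin handling genes and 1 purine enzyme. Bulk RNA of whole small intestines had been sequenced from 8 E15.5 mouse embryos, 1 intestine per library, on the C57BL6J background. The 4 embryos labelled cKO carried Slmapfl/fl with a Cre that the labels spell both Derom-Cre and Dermo-Cre, and the 4 control embryos carried Slmapfl/fl with no Cre named. Both groups therefore shared the floxed alleles of Slmap, which encodes a scaffold protein of the STRIPAK phosphatase complex, and the series asks how its loss shortens the gut. Dermo1, now called Twist2, is a gene whose promoter is used to drive Cre in mesenchyme, and enterocytes are epithelial and not mesenchymal cells.

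Enterocytes are columnar cells that cover the villi. Each carries a brush border of packed microvilli, held up by actin bundles that villin cross-links and joined at their tips by protocadherins. Enzymes anchored in this membrane split the last sugars and peptides of the meal, transporters next to them carry the products into the cell, and binding proteins in the cytosol pass fatty acids and retinol to the enzymes that esterify them. In the mouse the villi form in the last week before birth, lactase is the disaccharidase of the suckling animal, and sucrase-isomaltase and trehalase come up around weaning.

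FPKM is the number of fragments of a gene scaled to its length and to the library's total, so levels can be compared between genes on this scale. The whole reads behind the values summed to 15663837 to 17806397 per library. Controls 3 and 4 stood apart from the rest in having a read in 25832 and 25934 genes, against 23883 to 24071 in the other 6 libraries. Slmap itself had 25.5, 23.5, 26.5 and 26.3 FPKM in the libraries labelled cKO 1 to 4, against 23.6, 23.3, 25.4 and 24.2 FPKM in controls 1 to 4. It was not lower in cKO (difference 0.07 on the log2 scale, limma adjusted p = 0.570). Which exons the loxP sites flank is not given, and the value sums the whole gene, so it does not check the labels. All groups are named below by their labels.

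Most members were well expressed in these fetal intestines, and no tested member differed between the groups beyond the spread between embryos. Of the 32, 29 had a mean of at least 1 FPKM and were tested, and none passed an adjusted p of 0.05 in either direction by limma, a linear model fitted across all genes on log2(FPKM + 1). Over all 14220 genes tested the same rule called 0 genes higher (0.0%) and 2 genes lower (0.0141%) in cKO, so the absence of calls among the members is the background level. Limma-voom on the recovered reads called 0 members as well. Without adjustment, 0 members had p under 0.05, whereas 12.6% of all genes were higher and 9.87% were lower at that level. Likewise no member had groups that did not overlap, against 9.61% of all genes with every cKO library higher and 5.75% with every cKO library lower. The log2 fold changes of the tested members ran from -1.07 for Fabp1 to 0.21 for Ada, with 8 above 0 and 21 below. Their median was -0.17, beside -0.002 over all genes tested, and it stayed below 0 in the 3 other scalings of the libraries that were run. In bulk tissue, fewer enterocytes and less of these RNAs per enterocyte cannot be told apart. No litter, sex or batch is labelled, so the p-values rest on the spread between embryos alone.

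Among the members, large differences lay between libraries of the same group. cKO 2 held the lowest value of all 8 libraries in 28 of the 29 tested members (96.6%), against 16.7% of all genes tested. Ada, for which cKO 2 was the highest library, was the exception. Controls 3 and 4 both lay above controls 1 and 2 in 22 of the 29 (75.9%), against 30.8% of all genes. cKO 1, 3 and 4 each lay above both controls 1 and 2 in 26 of the 29 (89.7%), against 31.1% of all genes. The full order of 3 levels, with cKO 2 lowest, controls 1 and 2 between, and cKO 1, 3 and 4 with controls 3 and 4 on top, was seen in 21 of the 29 (72.4%), against 5.36% of all genes. These counts describe libraries picked out after their values were seen and are not tests.

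**Figure D1:**
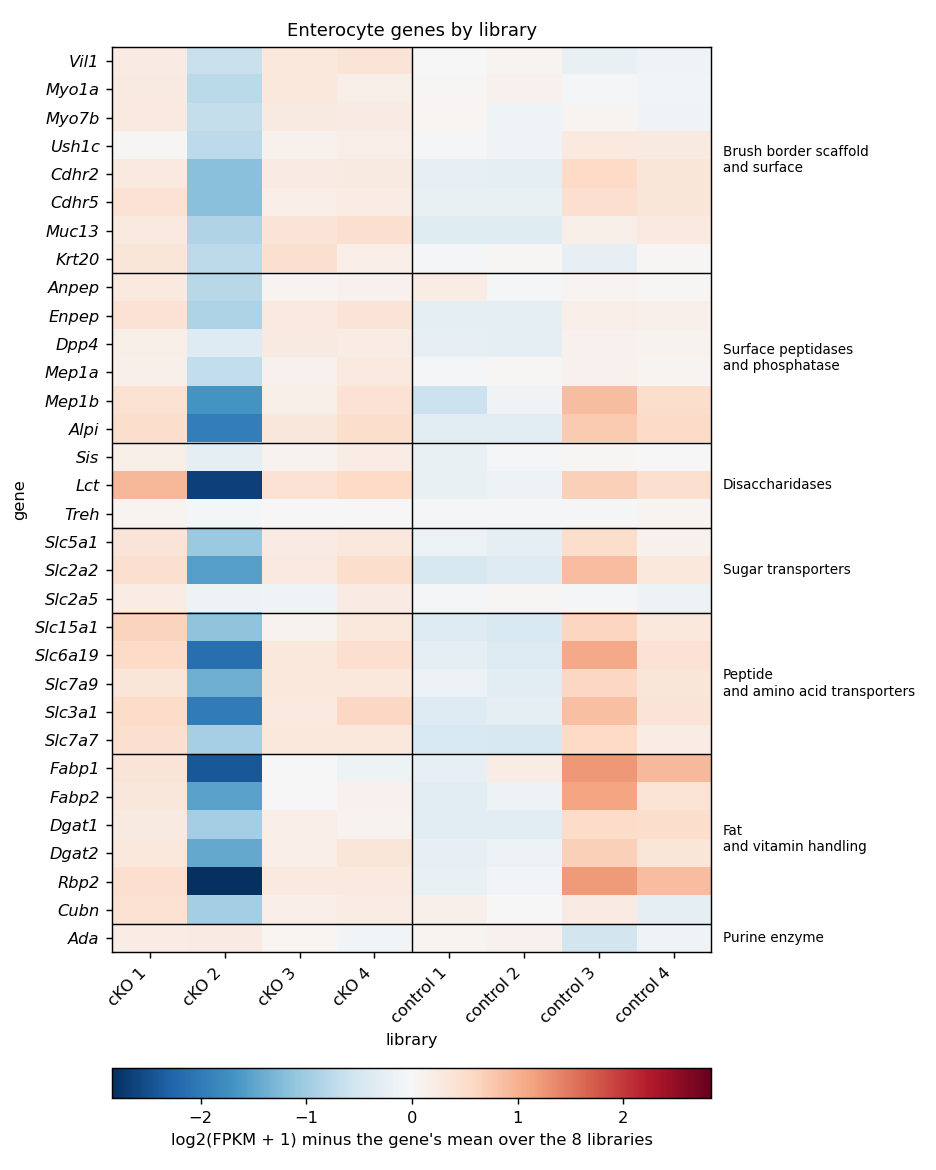
Heat map of all 32 members, in rows by role, across cKO 1 to 4 on the left and controls 1 to 4 on the right. Colour gives the log2(FPKM + 1) value minus the member's mean over the 8 libraries, from blue (below) to red (above), and the cKO 2 column is the lowest in 28 of the 29 rows of tested members.

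The span from the lowest to the highest library differed strongly between members. It was 1.56-fold for Dpp4, 2.12-fold for Ada and 1.98-fold for Vil1, but 12.5-fold for Fabp1, 14.9-fold for Lct, 17.4-fold for Rbp2, 19.2-fold for Slc2a2 and 20.3-fold for Slc6a19. By role, cKO 2 had a median of 48.8% of the cKO group's median over the 8 scaffold and surface genes (35.4% to 54.5%) and 48.6% over the 6 peptidase and phosphatase genes (17.9% to 67.5%). It had 31.7% over the 6 fat and vitamin genes (11.1% to 44.6%) and 19.3% over the 5 peptide and amino acid transporter genes (8.21% to 40.5%). By these medians the scaffold and surface genes and the peptidase and phosphatase genes kept the larger shares in cKO 2. The roles overlapped, since Cdhr2 and Cdhr5 kept 35.4% and 37.0%, below the transporter gene Slc7a7 at 40.5%. Control 3 ran the other way, at a median of 110.1% of the control group's median for the scaffold genes, 115.6% for the peptidases and phosphatase, 152.1% for the fat and vitamin genes and 172.2% for the peptide and amino acid transporters. Across the 29 members, the share in cKO 2 and the share in control 3 had a Spearman rho of -0.86, and -0.85 over the 28 without Ada, given as a description of genes that share these 8 libraries.

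**Figure D2:**
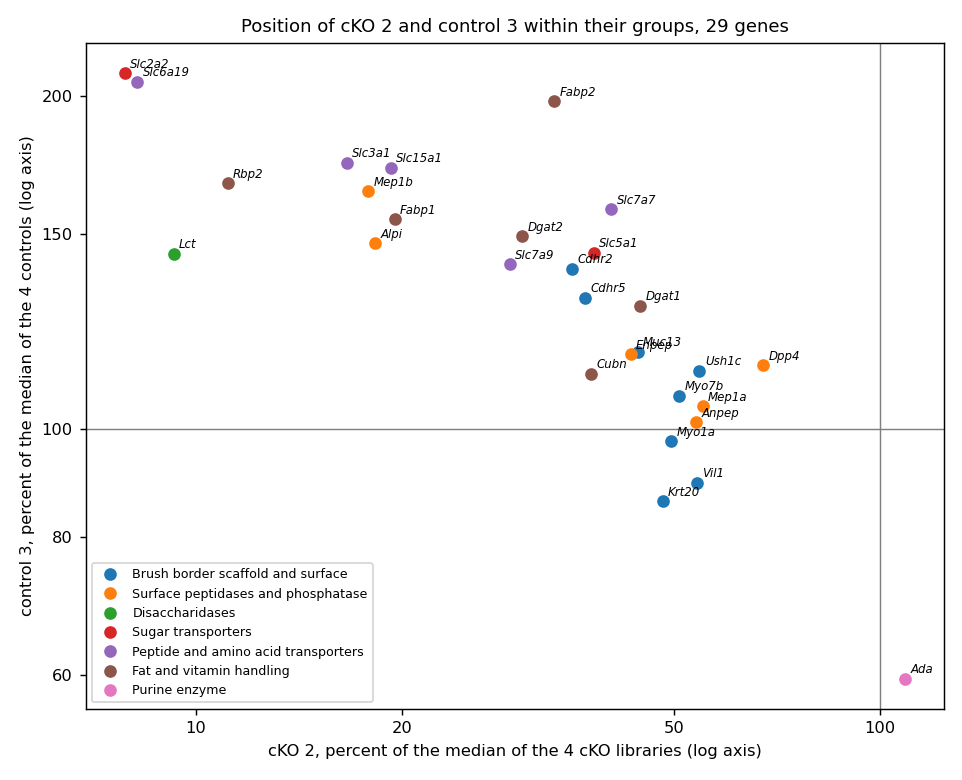
Each point is 1 tested member, placed by its FPKM in cKO 2 as a percent of the cKO median (x axis) and in control 3 as a percent of the control median (y axis), coloured by role, on log axes with lines at 100%. Slc2a2 and Slc6a19, with the lowest shares in cKO 2, lie at the upper left, the scaffold genes lie at the lower centre, and Ada lies alone at the lower right.

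Promoter sequences of the members were searched for letters that intestinal factors are known to bind. RefSeq promoters of 300 bases (250 before the start of the gene and 50 after it, build GRCm38.p6, which is older than the table's GRCm39) were searched for 28 of the 32 members, 34 promoters in all. No promoter of Dgat1, Dgat2, Mep1b or Myo7b was searched, so absence from these counts is no result for those genes. The 32851 promoters given for comparison are the full set and were not matched to the members searched. The letters TTTATNG, read by the caudal homeobox factors CDX1 and CDX2, lay on either strand in 9 of the 34 (26.5%), against 10.9% of all 32851 promoters. CAAAGTCCA, read by HNF4 nuclear receptors, lay in 4 (11.8%), against 0.475% of all. These were promoters of Alpi, Muc13, Slc3a1 and Treh, the last of which had almost no reads here. GATAAG of GATA factors lay in 4 (11.8%, all 7.44%) and TATAAA, the TATA box, in 8 (23.5%, all 13.6%). A match is a run of letters and not a shown binding site, and the CDX and TATA letters can overlap. In Alpi, Dpp4, Krt20 and Rbp2 the only CDX match holds TATA letters within it, so these genes count under both. Whether the matches follow the members' shares in cKO 2 was not tested, and CDX matches lay in members with low and with higher shares. Slc2a2, Slc6a19 and Lct, the 3 tested members with the lowest shares there, had no CDX match, while Dpp4, Mep1a and Krt20, which have one, kept 67.5%, 55.0% and 48.1% of the cKO median. Below are 4 promoters, shown as examples and picked after their values were seen, of genes low in cKO 2 that hold a CDX match, Fabp1 at 19.5%, Rbp2 at 11.1%, Alpi at 18.3% and Slc3a1 at 16.6% of the cKO median. They lie at chr6:71199629-71199928 (plus strand), chr9:98490287-98490586 (plus strand), chr1:87101557-87101856 (minus strand) and chr17:85028097-85028396 (plus strand), and capitals mark the matches.
Fabp1 promoter: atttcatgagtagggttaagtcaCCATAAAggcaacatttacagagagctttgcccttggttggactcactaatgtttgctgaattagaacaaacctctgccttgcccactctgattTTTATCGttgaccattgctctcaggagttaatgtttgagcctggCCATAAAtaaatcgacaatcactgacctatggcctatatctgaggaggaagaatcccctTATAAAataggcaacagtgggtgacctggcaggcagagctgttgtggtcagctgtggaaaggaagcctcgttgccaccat
Rbp2 promoter: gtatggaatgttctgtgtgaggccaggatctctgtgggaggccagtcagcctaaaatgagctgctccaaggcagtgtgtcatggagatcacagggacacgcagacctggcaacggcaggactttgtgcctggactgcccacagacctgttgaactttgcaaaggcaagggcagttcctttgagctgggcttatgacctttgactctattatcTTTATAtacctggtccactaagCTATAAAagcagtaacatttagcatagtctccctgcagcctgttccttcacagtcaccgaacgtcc
Alpi promoter: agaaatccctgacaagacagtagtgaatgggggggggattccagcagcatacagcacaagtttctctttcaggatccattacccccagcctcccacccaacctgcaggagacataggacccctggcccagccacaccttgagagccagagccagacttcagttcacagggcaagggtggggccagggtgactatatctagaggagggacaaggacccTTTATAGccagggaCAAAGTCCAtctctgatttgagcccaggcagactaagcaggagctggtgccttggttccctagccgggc
Slc3a1 promoter: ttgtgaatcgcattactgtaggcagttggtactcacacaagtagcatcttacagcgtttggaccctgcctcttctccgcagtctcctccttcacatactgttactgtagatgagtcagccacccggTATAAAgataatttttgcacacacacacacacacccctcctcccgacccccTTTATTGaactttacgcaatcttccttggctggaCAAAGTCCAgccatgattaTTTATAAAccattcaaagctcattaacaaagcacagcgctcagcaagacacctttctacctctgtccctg
In Fabp1 the first 3 capital runs are CDX letters and the run nearest the start is a TATA box. In Alpi a CDX and a TATA match share the first run and CAAAGTCCA is the second. In Slc3a1 CAAAGTCCA follows a CDX match, and in Rbp2 the last run holds overlapping CDX and TATA letters.

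Among the scaffold and surface genes, Muc13, a transmembrane mucin of the glycocalyx and the most abundant of the role, had 230.0, 105, 243 and 261 FPKM in the libraries labelled cKO 1 to 4, against 149, 150.3, 214 and 229.5 FPKM in controls 1 to 4 (ENSMUSG00000022824, chromosome 16, 33614407 to 33640304, plus strand). cKO 2 lay below all controls while the other 3 cKO libraries lay above them, so the groups overlapped. The log2 fold change was 0.12 with a standard error of 0.30 and a 95% interval of -0.55 to 0.79 (limma adjusted p = 0.847). Gene positions follow the table, whose build the submitters' processing notes give as GRCm39. Vil1, villin, which bundles actin in the microvillus core, had 124, 68.4, 129.7 and 136 FPKM in cKO 1 to 4, against 105, 112, 90.8 and 97.6 FPKM in controls 1 to 4, and was chosen after its values were seen. It showed the same split of the cKO libraries, with cKO 1, 3 and 4 above every control and a log2 fold change of 0.13 with a standard error of 0.21 (limma adjusted p = 0.761). Myo1a, Myo7b and Krt20 did so too. Myo1a, the motor that ties the actin core to the membrane, averaged 27.9 ± 8.31 FPKM in cKO and 27.2 ± 1.64 FPKM in control. Myo7b, the motor of the microvillus tip complex, averaged 21.5 ± 6.08 FPKM in cKO and 20.01 ± 1.49 FPKM in control. Krt20, a keratin of differentiated villus cells, averaged 38.2 ± 12.5 FPKM in cKO and 33.4 ± 2.80 FPKM in control (SD, n = 4 each). These 5, with Dpp4 and Enpep, made up the 7 members (24.1%) in which cKO 1, 3 and 4 each exceeded all 4 controls, against 17.4% of all genes.

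Among the scaffold genes, Ush1c and Cdhr2 took a different order. Ush1c, harmonin, a scaffold that ties protocadherins to Myo7b, had 18.8, 10.7, 20.3 and 21.2 FPKM in the libraries labelled cKO 1 to 4, against 17.9, 17.1, 22.7 and 22.2 FPKM in controls 1 to 4 (ENSMUSG00000030838, chromosome 7, 45844774 to 45887927, minus strand). Controls 3 and 4 lay above every cKO library, and the log2 fold change was -0.19 with a standard error of 0.21 and a 95% interval of -0.66 to 0.27 (limma adjusted p = 0.616). Cdhr2, one of the protocadherins that link neighbouring microvilli, averaged 26.5 ± 10.3 FPKM in cKO and 29.3 ± 8.67 FPKM in control, and its partner Cdhr5 averaged 42.2 ± 16.8 FPKM in cKO and 45.8 ± 11.6 FPKM in control (SD, n = 4 each). For Cdhr2 as well as Ush1c, controls 3 and 4 exceeded all 4 cKO libraries. That order was seen in 8 members (27.6%), Fabp1, Fabp2, Rbp2, Dgat1, Alpi, Mep1b, Cdhr2 and Ush1c, against 18.1% of all genes. It did not hold for Cdhr5, where control 4 (52.8 FPKM) lay below cKO 1 (55.7 FPKM).

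**Figure D3:**
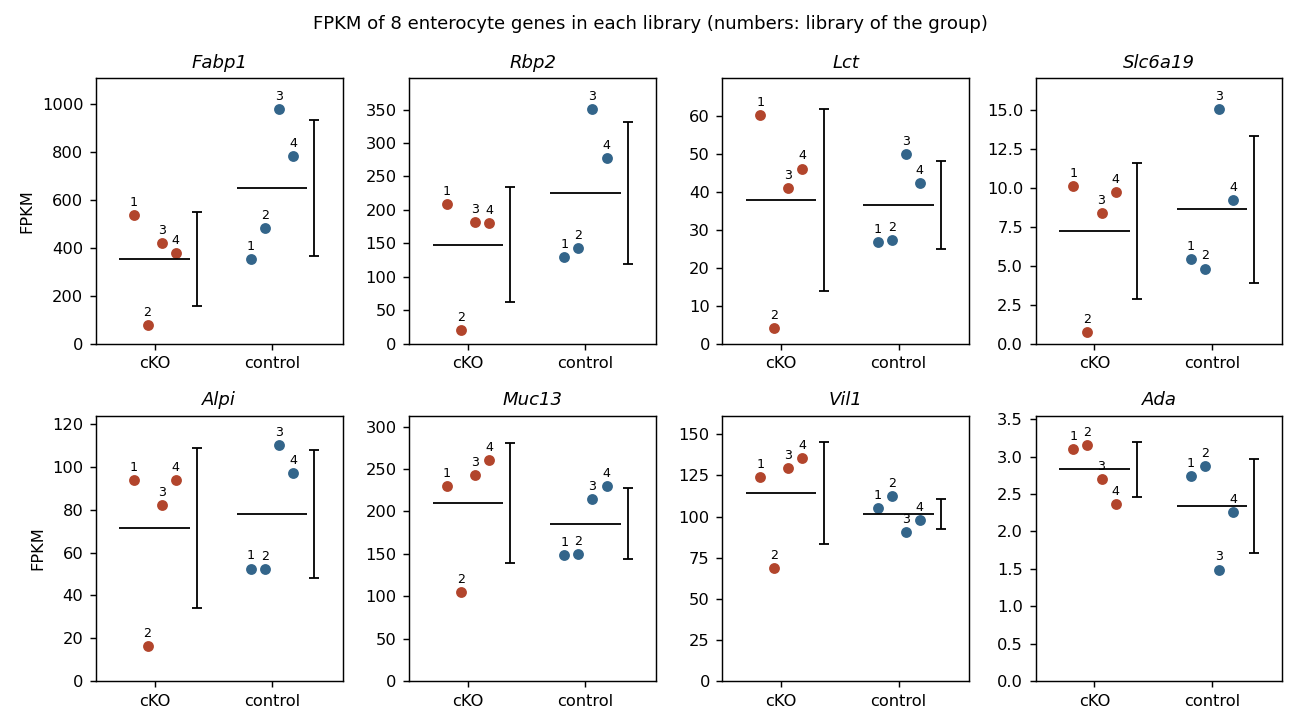
FPKM of 8 members in each library, 1 panel per gene, with cKO points left of control points, numbered by library, a line at each group mean and a bar of 1 SD either side. In every panel except that of Ada the lowest cKO point is cKO 2, and in Fabp1, Rbp2, Lct, Slc6a19 and Alpi the highest control point is control 3.

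Of the surface peptidases and phosphatase, Anpep, aminopeptidase N, which trims peptides from the amino end, was the most abundant, with 159, 75.9, 139 and 143 FPKM in the libraries labelled cKO 1 to 4, against 150.1, 128, 137 and 133 FPKM in controls 1 to 4 (ENSMUSG00000039062, chromosome 7, 79471551 to 79510807, minus strand). Apart from cKO 2 the 7 libraries lay close together, and the log2 fold change was -0.14 with a standard error of 0.21 and a 95% interval of -0.62 to 0.34 (limma adjusted p = 0.742). Dpp4, dipeptidyl peptidase 4, which also cleaves incretin hormones, had 35.5, 24.4, 37.9 and 36.7 FPKM in cKO 1 to 4, against 26.8, 26.3, 34.7 and 33.8 FPKM in controls 1 to 4. Its log2 fold change was 0.13 with a standard error of 0.16 and a 95% interval of -0.23 to 0.49 (limma adjusted p = 0.665). cKO 2 was again lowest, by less than in any other member that it was lowest in, and controls 1 and 2 lay next to it. Alpi, intestinal alkaline phosphatase, which removes phosphate from bacterial lipopolysaccharide, had 94.1, 16.1, 82.2 and 94.2 FPKM in cKO 1 to 4, against 52.6, 52.2, 110.2 and 97.1 FPKM in controls 1 to 4, and was added after its values were seen. Its controls fell into 2 pairs, 3 and 4 above every cKO library and 1 and 2 below cKO 1, 3 and 4, and its log2 fold change was -0.32 with a standard error of 0.55 (limma adjusted p = 0.777).

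In the remaining 3 peptidase genes cKO 2 was again the lowest library. Enpep, aminopeptidase A, which removes acidic residues, averaged 73.0 ± 24.9 FPKM in cKO and 65.2 ± 11.2 FPKM in control. The meprin subunits, metalloproteases of the brush border, differed from each other, Mep1a with 32.0 ± 8.70 FPKM in cKO and 33.0 ± 1.67 FPKM in control and Mep1b with 8.27 ± 4.41 FPKM in cKO and 9.87 ± 4.71 FPKM in control (SD, n = 4 each). cKO 2 had 55.0% of the cKO median for Mep1a and 17.9% for Mep1b.

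The disaccharidases differed widely in level. Lct, lactase, which splits the sugar of milk, had 60.2, 4.05, 41.0 and 46.1 FPKM in the libraries labelled cKO 1 to 4, against 26.7, 27.2, 50.1 and 42.3 FPKM in controls 1 to 4 (ENSMUSG00000026354, chromosome 1, 128212493 to 128256055, minus strand). cKO 2 was far below all others and cKO 1 was the highest, and the group means were near each other, 37.9 ± 24.0 FPKM in cKO and 36.6 ± 11.6 FPKM in control (SD, n = 4 each). Its log2 fold change was -0.37 with a standard error of 0.71 and a 95% interval of -1.99 to 1.25 (limma adjusted p = 0.797), an interval that spans large changes both ways. Sis, sucrase-isomaltase, was close to absent at 0.230 to 0.713 FPKM in cKO and 0.295 to 0.517 FPKM in control (means 0.554 and 0.444), on 31 to 92 reads in cKO and 37 to 66 in control. Treh, trehalase, rested on 3, 0, 1 and 1 reads in cKO 1 to 4 and 0, 0, 0 and 3 reads in controls 1 to 4. A count of 0 here allows up to 3 reads, or 0.0811 to 0.0927 FPKM, and such floors cover counting error only. Neither gene was tested. Sis and Treh were thus near 0 at this age while Lct was well above it. Mgam, maltase-glucoamylase, which is no member, had 24.8 to 48.6 FPKM in cKO and 28.7 to 40.7 FPKM in control. The label of enterocyte genes rests on the other members and on the epithelial markers given further on.

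Among the sugar transporters, Slc5a1, the sodium-coupled glucose carrier SGLT1 of the apical membrane, had 38.1, 13.6, 34.7 and 36.7 FPKM in the libraries labelled cKO 1 to 4, against 26.4, 24.1, 42.3 and 32.2 FPKM in controls 1 to 4 (ENSMUSG00000011034, chromosome 5, 33261563 to 33320214, plus strand). Its log2 fold change was -0.09 with a standard error of 0.32 and a 95% interval of -0.82 to 0.64 (limma adjusted p = 0.899). Slc2a2, the glucose carrier GLUT2 that mainly serves the basal side, had 4.36, 0.318, 3.72 and 4.53 FPKM in cKO 1 to 4, against 1.84, 2.01, 6.11 and 3.81 FPKM in controls 1 to 4 (ENSMUSG00000027690, chromosome 3, 28752052 to 28785508, plus strand). The log2 fold change of Slc2a2 was -0.17 with a standard error of 0.49 and a 95% interval of -1.28 to 0.94 (limma adjusted p = 0.873). In both, cKO 2 was lowest and control 3 highest, and the spread was far wider for Slc2a2, where cKO 2 had 7.87% of the cKO median and control 3 had 209.8% of the control median. Slc2a5, the fructose carrier GLUT5, stayed under 1 FPKM in every library, at 0.505 to 0.953 FPKM in cKO and 0.500 to 0.699 FPKM in control (means 0.732 and 0.608), and was not tested.

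Slc3a1, the heavy subunit that brings its light chain Slc7a9 to the membrane for the uptake of cystine and basic amino acids, had 34.5, 5.24, 28.6 and 35.7 FPKM in the libraries labelled cKO 1 to 4, against 17.97, 19.6, 43.7 and 30.5 FPKM in controls 1 to 4 (ENSMUSG00000024131, chromosome 17, 85335804 to 85371664, plus strand). cKO 2 was the lowest of the 8 and control 3 the highest, and the log2 fold change was -0.30 with a standard error of 0.56 and a 95% interval of -1.57 to 0.98 (limma adjusted p = 0.794). The light chain Slc7a9 averaged 25.4 ± 11.04 FPKM in cKO and 27.6 ± 8.32 FPKM in control (SD, n = 4 each), nearly the same level as its partner. Slc6a19, the neutral amino acid carrier B0AT1, had 10.1, 0.741, 8.36 and 9.69 FPKM in cKO 1 to 4, against 5.403, 4.81, 15.02 and 9.18 FPKM in controls 1 to 4 (ENSMUSG00000021565, chromosome 13, 73827864 to 73852984, minus strand). This was the widest span of any tested member, and the log2 fold change was -0.41 with a standard error of 0.60 and a 95% interval of -1.78 to 0.96 (limma adjusted p = 0.726). Slc15a1, the peptide carrier PEPT1, averaged 2.70 ± 1.58 FPKM in cKO and 2.67 ± 1.29 FPKM in control, and Slc7a7, the light chain of the basolateral exit carrier for basic amino acids, averaged 21.7 ± 7.92 FPKM in cKO and 20.5 ± 7.55 FPKM in control (SD, n = 4 each). For all 5 transporter genes cKO 2 was the lowest library, controls 3 and 4 exceeded controls 1 and 2, and cKO 1, 3 and 4 exceeded controls 1 and 2. Slc3a1 overlaps Prepl by 767 bases and Slc7a7 overlaps Oxa1l by 232 bases on the opposite strand, and Slc6a19 overlaps its antisense gene Slc6a19os by 5040 bases. Of the scaffold and peptidase members, Ush1c overlaps Gm9860 by 3653 bases, Muc13 overlaps Gm15657 by 2838 bases and Enpep overlaps Gm42628 by 764 bases. On the same strand, Anpep overlaps Gm44974 by 1279 bases, Rbp2 overlaps Gm37113 by 1157 bases and Slc5a1 overlaps Gm15936 by 460 bases. These 3 partners averaged 0.534, 0.139 and 0.12 FPKM. The labels do not say whether strand was used in counting, and strand would not separate genes of the same strand. Reads in all these stretches therefore cannot be assigned.

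The fat and vitamin handling genes held the most abundant members. Fabp1, the liver-type fatty acid binding protein, which is also high in proximal intestine, ranked 40th of all genes by mean FPKM and had 537, 77.9, 420.3 and 378 FPKM in the libraries labelled cKO 1 to 4, against 353, 481, 978 and 782 FPKM in controls 1 to 4 (ENSMUSG00000054422, chromosome 6, 71176811 to 71182007, plus strand). Controls 3 and 4 exceeded every cKO library, cKO 2 lay far below all others, and the group means were 353 ± 195 FPKM in cKO and 649 ± 284 FPKM in control (SD, n = 4 each). Its log2 fold change of -1.07 with a standard error of 0.59 and a 95% interval of -2.41 to 0.28 (limma adjusted p = 0.319) was the farthest from 0 among the members. Fabp2, the intestinal fatty acid binding protein, ranked 52nd with 491, 138, 397 and 426 FPKM in cKO 1 to 4, against 321, 354, 863 and 519 FPKM in controls 1 to 4, and Rbp2, which carries retinol inside the enterocyte, had 209, 20.2, 182 and 181 FPKM in cKO 1 to 4, against 129.8, 143, 351 and 277 FPKM in controls 1 to 4. Both were added after their values were seen. In both, as in Fabp1, controls 3 and 4 exceeded every cKO library and cKO 2 was lowest. Controls 1 and 2 lay below cKO 1, 3 and 4 in Fabp2 and Rbp2, whereas for Fabp1 control 2 lay above cKO 3 and 4. The log2 fold changes were -0.54 with a standard error of 0.44 (limma adjusted p = 0.511) for Fabp2 and -0.91 with a standard error of 0.72 (limma adjusted p = 0.490) for Rbp2. The acyltransferases of triglyceride synthesis averaged 26.8 ± 8.87 FPKM in cKO and 30.6 ± 9.90 FPKM in control for Dgat1 and 56.3 ± 24.4 FPKM in cKO and 64.8 ± 20.1 FPKM in control for Dgat2 (SD, n = 4 each). Cubn, cubilin, the receptor for vitamin B12 bound to intrinsic factor, averaged 7.11 ± 2.81 FPKM in cKO and 7.01 ± 1.15 FPKM in control (SD, n = 4 each) and had its lowest control value in control 4.

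Ada, adenosine deaminase, which converts adenosine to inosine in purine salvage and is known to become abundant in the upper small intestine after birth, went against the rest. It had 3.10, 3.15, 2.70 and 2.37 FPKM in the libraries labelled cKO 1 to 4, against 2.74, 2.87, 1.49 and 2.26 FPKM in controls 1 to 4 (ENSMUSG00000017697, chromosome 2, 163568504 to 163592159, minus strand). The lowest value was that of control 3 and the highest that of cKO 2, on a narrow range, and the log2 fold change was 0.21 with a standard error of 0.15 and a 95% interval of -0.13 to 0.55 (limma adjusted p = 0.436). It did not show the order of 3 levels.

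Because libraries rather than groups carried the pattern, the comparison was repeated with the libraries in doubt left out, a choice made with results of these data known. The libraries left out were the lowest cKO and the highest controls for many of these same genes, so the direction of these fits is set in part by the choice, and their calls cannot be read as tests. Without cKO 2 the median log2 fold change of the members turned to 0.23 with 26 of 29 above 0, and 1 member, Krt20, passed the adjusted threshold as higher in cKO (log2 fold change 0.39, limma adjusted p = 0.047), against 5.57% of all genes. Without controls 3 and 4 the median was 0.11 with 21 above 0, and 0 members were called, against 0.00703% of all genes. Without cKO 2 and controls 3 and 4 together, 22 of the 29 (75.9%) were called higher in cKO, against 15.3% of all genes, with log2 fold changes of 0.25 to 0.83, over 3 cKO and 2 control libraries. The 7 not called were Ada, Anpep, Cubn, Fabp1, Mep1a, Myo1a and Ush1c. Under array quality weights, which give each library a weight from its own scatter (0.329 for cKO 2, 0.467 for control 3 and 0.683 for control 4), the median was 0.24 and 0 members were called, against 8.3% of all genes higher. The sign of the group difference in these genes therefore depended on which libraries were kept, and the labels give no ground for leaving any out.

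**Figure D4:**
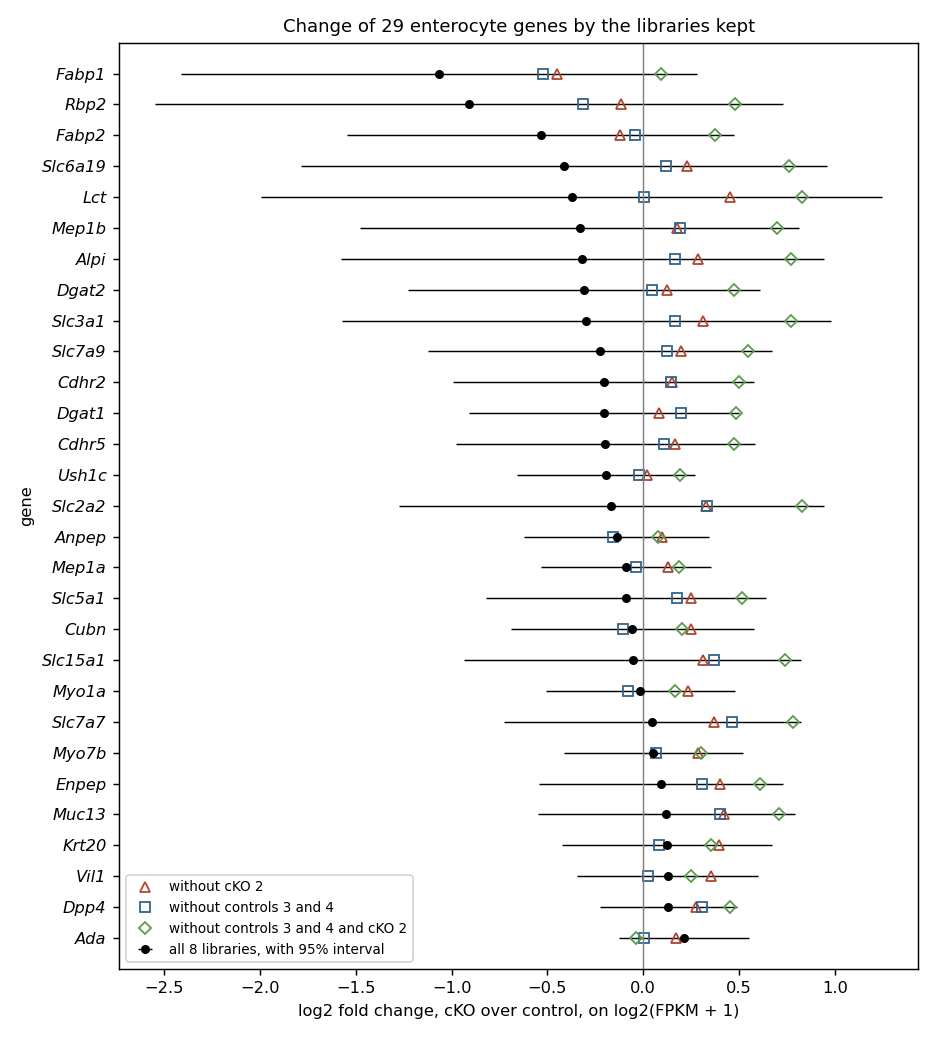
Log2 fold change of cKO over control on log2(FPKM + 1) for each tested member, with all 8 libraries (black points, 95% limma intervals), without cKO 2 (triangles), without controls 3 and 4 (squares) and without all 3 (diamonds). All 29 intervals span 0, from -1.07 for Fabp1 to 0.21 for Ada, and the diamonds lie above 0 for 28 of 29 members.

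Other gene lists show how far this order reached. The lists were chosen with earlier results of these data known, and each is described by its counts. For comparison, cKO 2 was the lowest library in 16.7% of all genes tested. Among 25 tested brush border genes that are not members, cKO 2 was the lowest library in 16 (64.0%), among 20 other digestive enzymes in 15 (75.0%), among 31 other nutrient transporters in 25 (80.6%) and among 21 other fat and vitamin A genes in 15 (71.4%). In none of these lists was a gene called by limma at the adjusted threshold, and their median log2 fold changes were 0.04, -0.09, -0.10 and -0.03. Unadjusted p was under 0.05 for 1 gene in each, all higher in cKO, against 12.6% of all genes higher at that level. They were Myo6, an actin motor (adjusted p = 0.170), Cpm, a carboxypeptidase (0.0866), Slc16a1, the monocarboxylate carrier MCT1 (0.147), and Acsl3, an acyl-CoA synthetase (0.0882), all by limma. Acsl3 had 38.4, 31.8, 44.0 and 43.4 FPKM in cKO 1 to 4, against 27.5, 25.9, 31.8 and 29.3 FPKM in controls 1 to 4, and so did not show the low value of cKO 2 that members had. Among transcription factors of the enterocyte cKO 2 was lowest in 12 of 30 (40.0%), with a median log2 fold change of 0.06. Of these Klf5, a zinc finger factor of the gut epithelium, had the smallest unadjusted p by limma (log2 fold change 0.37, adjusted p = 0.158).

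**Figure D5:**
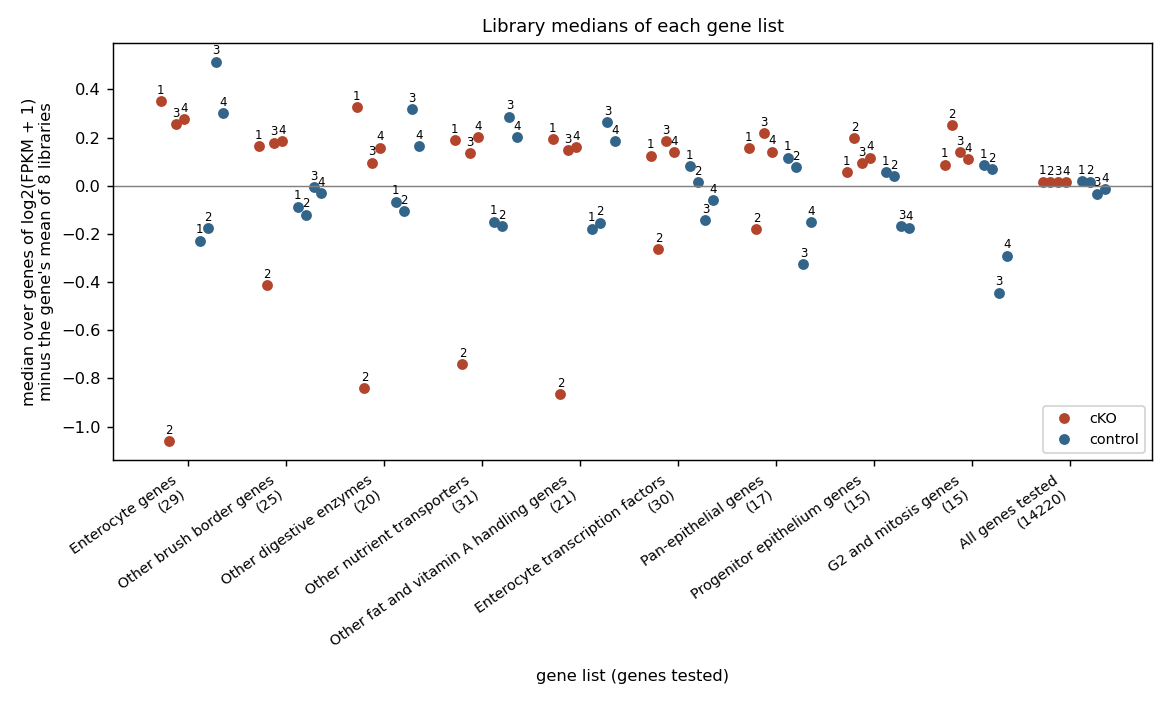
Median deviation of each gene list in each library, on log2(FPKM + 1) minus each gene's mean over the 8 libraries, with cKO 1 to 4 left of controls 1 to 4 in each list. The members (enterocyte genes) lie at -1.06 in cKO 2 and 0.52 in control 3, where the pan-epithelial genes lie at -0.18 and -0.33.

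Markers of the epithelium as a whole went with the members in the cKO libraries and against them in the controls. The members had median deviations of 0.35, -1.06, 0.26 and 0.28 in cKO 1 to 4, against -0.23, -0.18, 0.52 and 0.30 in controls 1 to 4, on the log2(FPKM + 1) scale. The 17 tested pan-epithelial genes, such as Epcam, Cdh1 and keratins, had 0.16, -0.18, 0.22 and 0.14 in cKO 1 to 4, against 0.12, 0.08, -0.33 and -0.15 in controls 1 to 4. Control 3, the highest library for most members, was thus the lowest for epithelial markers, with cKO 2 and control 4 next to it. Among the cKO libraries, cKO 2 was the lowest in 13 of the 17 (76.5%), against 34.6% of all genes. Scaled to these genes, the members' median log2 fold change was -0.34 with 1 above 0 and 28 below, but the same scaling moved the median of all genes to -0.15. Summed, the pan-epithelial genes had 1600 to 2200 FPKM in cKO and 1590 to 2070 in control, and the members 754 to 2550 FPKM in cKO and 1730 to 3470 in control.

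Markers of growth and of other cells also differed between the libraries that stood apart, and their part in the members' values was not tested. At unadjusted p under 0.05, 12.6% of all genes were higher and 9.87% lower in cKO. All 15 G2 and mitosis genes had fold changes above 0, with 8 at unadjusted p under 0.05 and none called, and their median deviation was 0.25 in cKO 2 but -0.44 and -0.29 in controls 3 and 4. The 15 progenitor epithelium genes had a median deviation of 0.20 in cKO 2 and of -0.17 in both controls 3 and 4, so controls 3 and 4 were high for members and low for these genes and cKO 2 was the reverse, while cKO 1, 3 and 4 lay above 0 for both. Of the progenitor genes 4 were higher and 1 lower at unadjusted p under 0.05, and none was called by limma. Red cell genes had a median deviation of 0.99 in cKO 2, where the embryonic globin Hbb-y reached 29.6 FPKM, against 3.02 to 5.20 FPKM in the other 3 cKO libraries and 1.97 to 4.15 FPKM in controls. Mesothelial genes had median deviations of -0.41, -0.21, -0.33 and -0.33 in cKO 1 to 4, against 0.03, 0.08, 0.59 and 0.51 in controls 1 to 4. All 9 tested had fold changes below 0, 7 of them at unadjusted p under 0.05. Genes of kidney tubule, which share several transporters with the enterocyte, were all under the mean of 1 FPKM, with sums of 0.0896 to 0.227 FPKM in cKO and 0.119 to 0.25 FPKM in control. Liver genes, which share Fabp1, summed to 45.8 to 66.3 FPKM in cKO and 29.6 to 49.9 FPKM in control. Albumin was under 1 FPKM everywhere and Ahsg at 0, whereas Ttr had 32.0 to 38.2 FPKM in cKO and 25.4 to 36.1 FPKM in control. Serpina1b had 8.56 to 19.4 FPKM in cKO and 1.74 to 9.32 FPKM in control. All 3 tested liver genes, Ttr, Serpina1a and Serpina1b, had fold changes above 0, with 2 at unadjusted p under 0.05 and none called by limma. Of the other cell types, cKO 2 was the lowest library for 0 of 13 tested mesenchyme, 0 of 10 smooth muscle, 0 of 12 enteric neuron and glia, 0 of 10 endothelial and 0 of 10 macrophage genes, and for 8 of 14 goblet and enteroendocrine genes. No gene of these lists was called by limma, and their median log2 fold changes were -0.17, -0.29, -0.06, 0.05, -0.21 and 0.04. At unadjusted p under 0.05, 5 of the 10 smooth muscle and 5 of the 10 macrophage genes were lower in cKO and none higher. For enteric neuron and glia genes 1 was higher and 2 lower, for endothelial genes 1 and 1, for goblet and enteroendocrine genes 2 and 0, and for mesenchyme genes 0 and 0. Pancreas genes summed to 138 to 704 FPKM in cKO and 358 to 675 FPKM in control. All 9 tested had fold changes below 0, with 2 at unadjusted p under 0.05 and none called by limma.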

How the data were processed

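RNA of 8 E15.5 small intestines, 4 cKO and 4 control, was extracted with TRIzol and made into NEBNext Ultra libraries, per the labels' protocols. The authors deposited FPKM per gene. Named in the submitters' processing notes are build GRCm39 and the tools HISAT2, featureCounts, fastp, CASAVA and DESeq2 1.20.0, without their roles or settings, and 3 blank lines of the table are not analysed here. Reads recovered from the FPKM steps were whole within 0.01 for 100% of values. The FPKM carry a further scaling of 0.969 to 1.09 between libraries, which the notes do not describe. It was highest in control 3 (1.09) and control 4 (1.06), with 0.969 to 1.01 in the other 6 libraries.

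Values were tested with limma 3.58.1 (R 4.3.3) on log2(FPKM + 1), the prior variance following an intensity trend, 2-sided, for the 14220 genes that averaged 1 FPKM or more, adjusted by Benjamini-Hochberg at 0.05. Fold changes on this scale understate those of low genes. The fit was tested on simulated counts that held no shared shifts between libraries, so that run does not cover spreads like those of the members. Members and lists were chosen with earlier results of these data known. Per-library values are given for the member of highest mean and that of smallest unadjusted p in each role, and up to 3 genes of smallest p per list. Others were chosen after their values were seen. A further promoter motif and some listed genes are not reported here. Alternatives changed the pseudocount, filter, scaling, weights, batch terms, GC and length (GENCODE M21, 93.5% of genes) and libraries. The iteration of the array weights stopped before full convergence.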

Additional observations from a re-analysis of the deposited data

Results flagged for a closer look

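Each of the 32 members was looked at in each group of 4 libraries for a library far from the other 3, which chance alone flags in about 5% of groups. Of 64 groups, 12 were flagged, and 11 of these were cKO 2 as the lowest library of its group. The values in cKO 2 were 15.6 FPKM for Myo1a, 12.4 for Myo7b, 11.1 for Cdhr2, 36 for Enpep, 16.1 for Alpi, 13.6 for Slc5a1, 8.8 for Slc7a9, 9.96 for Slc7a7, 13.6 for Dgat1, 20 for Dgat2 and 20.2 for Rbp2, each in FPKM. The 11 flags share 1 library and are not independent of one another. In the control group, Treh was flagged at 0.083 FPKM in control 4, which rests on 3 reads beside 0 in controls 1 to 3.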

How the results depend on the processing

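Under the settings run on all 8 libraries, 0 members were called in either direction, and their median log2 fold change was below 0 except under array quality weights, at 0.241 against -0.167 as reported. It ran from -0.335 under scaling to the pan-epithelial genes to -0.111 under the correction for GC content and length. At the adjusted threshold, 12 genes of the table were higher and 19 lower in cKO with median-ratio scaling, 14 and 20 with quantile normalization, 1 and 4 with scaling to the pan-epithelial genes, 1180 and 1029 with array quality weights, and 615 and 484 when numbers 1 and 2 were set against 3 and 4 as a covariate. They were 1 and 1 with the correction for GC content and length, and 0 and 1 among protein-coding genes alone. With a pseudocount of 0.1, with no filter on low values and with limma-voom on the recovered reads there were 0 and 0. Without an intensity trend there were 0 and 2, as reported. With the replicate number as a block, a replicate block fit, there were 0 and 0, and the smallest adjusted p of a member was 0.22. The numbers were not taken to pair the embryos, since no label says that they do. Same-numbered libraries deviated together with correlations of 0.069 to 0.326, of which 3 of 4 were over 0.1. Of these, 1 of 4 cKO and 2 of 4 control libraries correlated best with their own number. The numbers were not free of shared structure. cKO 1 and 2 correlated with controls 1 and 2 at 0.069 to 0.326, and cKO 3 and 4 with controls 3 and 4 at 0.15 to 0.387. Between numbers 1 and 2 and numbers 3 and 4 the correlations were -0.361 to -0.063. The main fit holds no term for this, and its source is not labelled.

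Without controls 3 and 4 there were 1 and 2 genes, with a members' median of 0.109. Without controls 3 and 4 and cKO 2, a setting added after seeing the data, there were 2171 higher and 2069 lower, 22 members called higher and a members' median of 0.477. Leaving out 1 library at a time gave 0 to 792 genes higher and 0 to 590 lower, 0 to 1 member higher, and a members' median of -0.276 to 0.231. The highest of each came without cKO 2. The cause of these changes was not tested.

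No member passed the threshold as reported, so a turned sign concerns values that did not differ beyond the spread. With quantile normalization the log2 fold changes that turned sign were Slc7a7 -0.009, Myo7b -0.004 and Slc15a1 0.005. With scaling to the pan-epithelial genes they were Muc13 -0.055, Vil1 -0.047, Enpep -0.081, Krt20 -0.049, Dpp4 -0.04, Slc7a7 -0.124 and Myo7b -0.116, and with the GC and length correction Enpep -0.014, Dpp4 -0.033 and Myo1a 0.06. With array quality weights they were Anpep 0.031, Alpi 0.318, Dgat2 0.153, Cdhr5 0.188, Lct 0.375, Mep1a 0.094, Slc5a1 0.278, Dgat1 0.166, Cdhr2 0.203, Myo1a 0.158, Slc3a1 0.332, Slc7a9 0.241, Ush1c 0.041, Mep1b 0.232, Slc6a19 0.286, Cubn 0.168, Slc2a2 0.398 and Slc15a1 0.361. Without controls 3 and 4 they were Alpi 0.167, Dgat2 0.043, Cdhr5 0.109, Lct 0.002, Slc5a1 0.178, Dgat1 0.198, Cdhr2 0.143, Slc3a1 0.163, Slc7a9 0.123, Mep1b 0.189, Slc6a19 0.12, Slc2a2 0.332 and Slc15a1 0.37. Without these and cKO 2, the members that turned sign were Fabp1 0.094, Fabp2 0.372, Rbp2 0.477, Anpep 0.079, Alpi 0.769, Dgat2 0.474, Cdhr5 0.473, Lct 0.826, Mep1a 0.184, Slc5a1 0.517, Dgat1 0.483, Cdhr2 0.5, Myo1a 0.167, Slc3a1 0.772, Slc7a9 0.548, Ush1c 0.189, Mep1b 0.696, Slc6a19 0.763, Cubn 0.201, Slc2a2 0.827, Slc15a1 0.739 and Ada -0.037, and those that kept their sign and passed the threshold were Muc13 0.706, Vil1 0.251, Enpep 0.609, Krt20 0.353, Dpp4 0.45, Slc7a7 0.782 and Myo7b 0.299. With 1 library left out, the lowest and highest values were Muc13 -0.013 and 0.423, Anpep -0.256 and 0.097, Alpi -0.54 and 0.285, Enpep -0.031 and 0.398, Dgat2 -0.477 and 0.123, Cdhr5 -0.369 and 0.166, Lct -0.75 and 0.45, Krt20 -0.011 and 0.393, Mep1a -0.198 and 0.129, Slc5a1 -0.222 and 0.25, Dgat1 -0.341 and 0.081, Cdhr2 -0.333 and 0.15, Myo1a -0.117 and 0.231, Slc3a1 -0.541 and 0.31, Slc7a9 -0.377 and 0.199, Slc7a7 -0.095 and 0.367, Myo7b -0.03 and 0.286, Ush1c -0.291 and 0.019, Mep1b -0.588 and 0.175, Slc6a19 -0.66 and 0.23, Cubn -0.208 and 0.251, Slc2a2 -0.362 and 0.327 and Slc15a1 -0.276 and 0.314.

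At this depth Treh could not be compared, and Sis and Slc2a5, on under 100 reads per library, were not tested. The levels of Slc2a2, Slc6a19 and Slc15a1 under 1 FPKM in cKO 2 are compressed on the log2(FPKM + 1) scale.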

Other observations

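The factor gene Creb3l3, an endoplasmic reticulum anchored activator of lipid genes in liver and intestine, followed the order of the members and was chosen after its values were seen. It had 27.7, 2.04, 27.9 and 30.8 FPKM in cKO 1 to 4, against 15.51, 15.6, 49.3 and 34.5 FPKM in controls 1 to 4. The nuclear receptor gene Hnf4a had 89.9, 68.0, 96.7 and 90.4 FPKM in cKO 1 to 4, against 87.7, 88.0, 65.3 and 72.0 FPKM in controls 1 to 4, and Cdx2 had 71.4, 61.2, 81.1 and 73.2 FPKM in cKO 1 to 4, against 91.6, 82.9, 52.8 and 60.8 FPKM in controls 1 to 4. Controls 3 and 4, highest for Creb3l3, were thus below controls 1 and 2 for Hnf4a and Cdx2. The paralogue Hnf4g had the order of the members, with 69.3, 38.3, 82.3 and 79.0 FPKM in cKO 1 to 4, against 46.9, 42.6, 64.1 and 58.7 FPKM in controls 1 to 4. Of the 30 transcription factors tested, 7 had controls 3 and 4 both above controls 1 and 2 (23.3%), against 30.8% of all genes. The full order of 3 levels was seen in 5 of them (16.7%), against 5.36% of all genes. Log2 fold changes were -0.65 for Creb3l3 (limma adjusted p = 0.652), 0.14 for Hnf4a (0.606), 0.30 for Hnf4g (0.509) and 0.02 for Cdx2 (0.956).

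Mme, neprilysin, a surface peptidase that is no member, had 9.09, 0.744, 7.51 and 8.50 FPKM in cKO 1 to 4, against 3.17, 3.04, 9.38 and 7.11 FPKM in controls 1 to 4, the same 3 levels. Mttp, the microsomal triglyceride transfer protein that loads lipoproteins, had 191.6, 48.4, 160.8 and 179.5 FPKM in cKO 1 to 4, against 87.7, 91.1, 149.2 and 140.7 FPKM in controls 1 to 4. For Mttp cKO 1, 3 and 4 exceeded all 4 controls. Both were picked after their values were seen.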
